A study of Homo sapiens with 2 samples.

Results

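The genes examined were 6 apoptosis genes known as candidate targets of FOXO factors, BCL2L11, BBC3, PMAIP1, TNFSF10, FASLG and BNIP3, in a map of FOXO3 on the genome of U87MG cells. FOXO3 was tagged by genome editing at its own locus, and an antibody against the FLAG tag drew down the chromatin it was bound to (CETCh-seq). U87MG is an established human glioblastoma line. Each gene was given a fixed window of hg19 around it, from 25 to 68 kb long, and every FLAG peak with its summit in a window was taken as a member. Of the 9717 peaks in the list, 2 were members, 1 at BCL2L11 and 1 at BBC3. The other 4 genes had no called peak and are kept here as members without one. Among stretches of the genome cut to the same lengths as the windows, 7.04% (25 kb) to 16.4% (68 kb) held a summit. The series holds 2 libraries, a FLAG immunoprecipitation and an input, both from U87MG cells labelled wild type in genotype and treated with LY294002, which blocks phosphoinositide 3-kinase. No cells without the inhibitor, no replicate of the immunoprecipitation and no read counts of either library were analysed here. The labels do not name the clone, the edited allele or the control used for the peak calls. All values below therefore describe 1 library, and no difference between conditions could be tested.

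FOXO factors are forkhead proteins that the kinase AKT holds in the cytoplasm while phosphoinositide 3-kinase is active. When that signal stops they enter the nucleus, bind an element with the core TGTTTAC and switch on, among others, genes of cell death. BCL2L11 (BIM), BBC3 (PUMA) and PMAIP1 (NOXA) encode BH3-only proteins, which act at mitochondria by binding the survival proteins of the BCL2 family. TNFSF10 (TRAIL) and FASLG encode ligands that start death from receptors at the cell surface. BNIP3 encodes a protein of the outer mitochondrial membrane that takes part in the removal of mitochondria.

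The promoter of BCL2L11 was the only one of the 6 with the full forkhead core in the searched window, and it is shown for that reason. The sequence below is the 250 bases that end just before the 5′ end of the gene in RefSeq, chr2:111120664-111120913 of GRCh38.p14 on the plus strand, 5′ to 3′. Capitals mark GTAAACA, which is TGTTTAC read on the minus strand, with its first base 223 bases before the 5′ end.
BCL2L11: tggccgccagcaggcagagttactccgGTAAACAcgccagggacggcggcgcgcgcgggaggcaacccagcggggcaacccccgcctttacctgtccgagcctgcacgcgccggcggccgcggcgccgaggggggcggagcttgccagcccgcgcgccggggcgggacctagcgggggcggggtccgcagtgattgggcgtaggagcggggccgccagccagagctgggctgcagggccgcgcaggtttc
The search covered 250 bases before and 50 after each 5′ end, both strands, for TGTTTAC, for the longer TTGTTTAC, for the shorter TGTTTA that both contain, and for CAAAACA, the core of the insulin response element. In BCL2L11 the single TGTTTA match was the same site as the TGTTTAC match, and the other 2 motifs had no match. None of the 4 motifs occurred in the windows of BBC3, PMAIP1, TNFSF10, FASLG or BNIP3. Among 35114 RefSeq promoters of this length, 3.42% held TGTTTAC, 0.954% TTGTTTAC, 12.3% TGTTTA and 4.92% CAAAACA. A match is a description of letters, and these windows are short and count from 1 listed 5′ end per gene. The FLAG peak of BCL2L11 began 1370 bases past the 5′ end given for the gene in hg19, whereas the site shown lies before the 5′ end in RefSeq. Whether the 5′ ends listed in the 2 builds are the same base was not checked. The bases under the FLAG peaks themselves were not analysed here.

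BCL2L11, whose product BIM binds all the main survival proteins of its family, carried 1 FLAG peak. It lay at chr2:111879861-111880169 (hg19), was 309 bp wide, and had its summit at 111880001. That summit is 1510 bp downstream of the 5′ end at 111878491, on the gene's own strand, and the whole peak ran from 1370 to 1678 bp downstream. By that 5′ end, which was not checked against an annotation of hg19, the peak was on the transcribed side of the start. Whether it falls in an exon or an intron was not analysed here. At the summit 54 ChIP tags were piled up, with a 95% Poisson interval (exact) of 40.6 to 70.5. The background that the peak caller set against them was 13.03 tags, which gives the deposited fold enrichment of 3.92 (2.96 to 5.09). The deposited −log10 p was 17.3 and the −log10 q was 13.3. The other summits nearest to the window were 339 kb away on the upstream side, with a fold of 3.70, and 121 kb away on the downstream side, with a fold of 3.20. In RefSeq order the protein-coding neighbour on the upstream side is ACOXL.

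BBC3, whose product PUMA is best known as a target of p53, also carried 1 FLAG peak, and it was the stronger in fold. It lay at chr19:47733789-47734176 (hg19), was 388 bp wide, and had its summit at 47733992. The pileup at the summit was 61 tags (46.7 to 78.4) over a background of 7.81 tags. The deposited fold was 7.04 (5.41 to 9.01), the −log10 p 33.5 and the −log10 q 28.9. The distance of this summit from a BBC3 start site was not analysed here. The next summit on the downstream side lay 51.5 kb outside the window with a fold of 4.02 (2.76 to 5.69), and on the upstream side none was called for 358 kb. BBC3 sits between SAE1 and CCDC9 in RefSeq order and overlaps the microRNA genes MIR3190 and MIR3191, so the peak need not belong to BBC3 alone.

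The 2 peaks had features in common that the windows did not fix. Both had a −log10 q above 10, as did 25.3% of the 9670 peaks that lay on an autosome or chromosome X. Both were wider than the median of 246 bp and had more tags than the median pileup of 25. At the background of BCL2L11, however, at least 29 tags were needed to reach the smallest p in the list. Any peak called there would thus exceed that median, so this comparison says nothing about BCL2L11. At the background of BBC3 the least was 20 tags. The −log10 q rests on pileup and background, so it is not a separate feature, and whether width goes with pileup was not tested. Only 9.34% of peaks had a pileup at least as high as that of BCL2L11, and 6.89% had one at least as high as that of BBC3. Both summits were near the middle of their peak, at 45.3% of the width in BCL2L11 and 52.3% in BBC3. How many of all peaks have a summit this central was not analysed, so this may be common in the list. The nearest other summit was 177 kb from that of BCL2L11 and 71.5 kb from that of BBC3, against a median of 41.5 kb over all peaks. Distances at least that long were found for 18.6% and 37.9% of peaks.

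**Figure D1:**
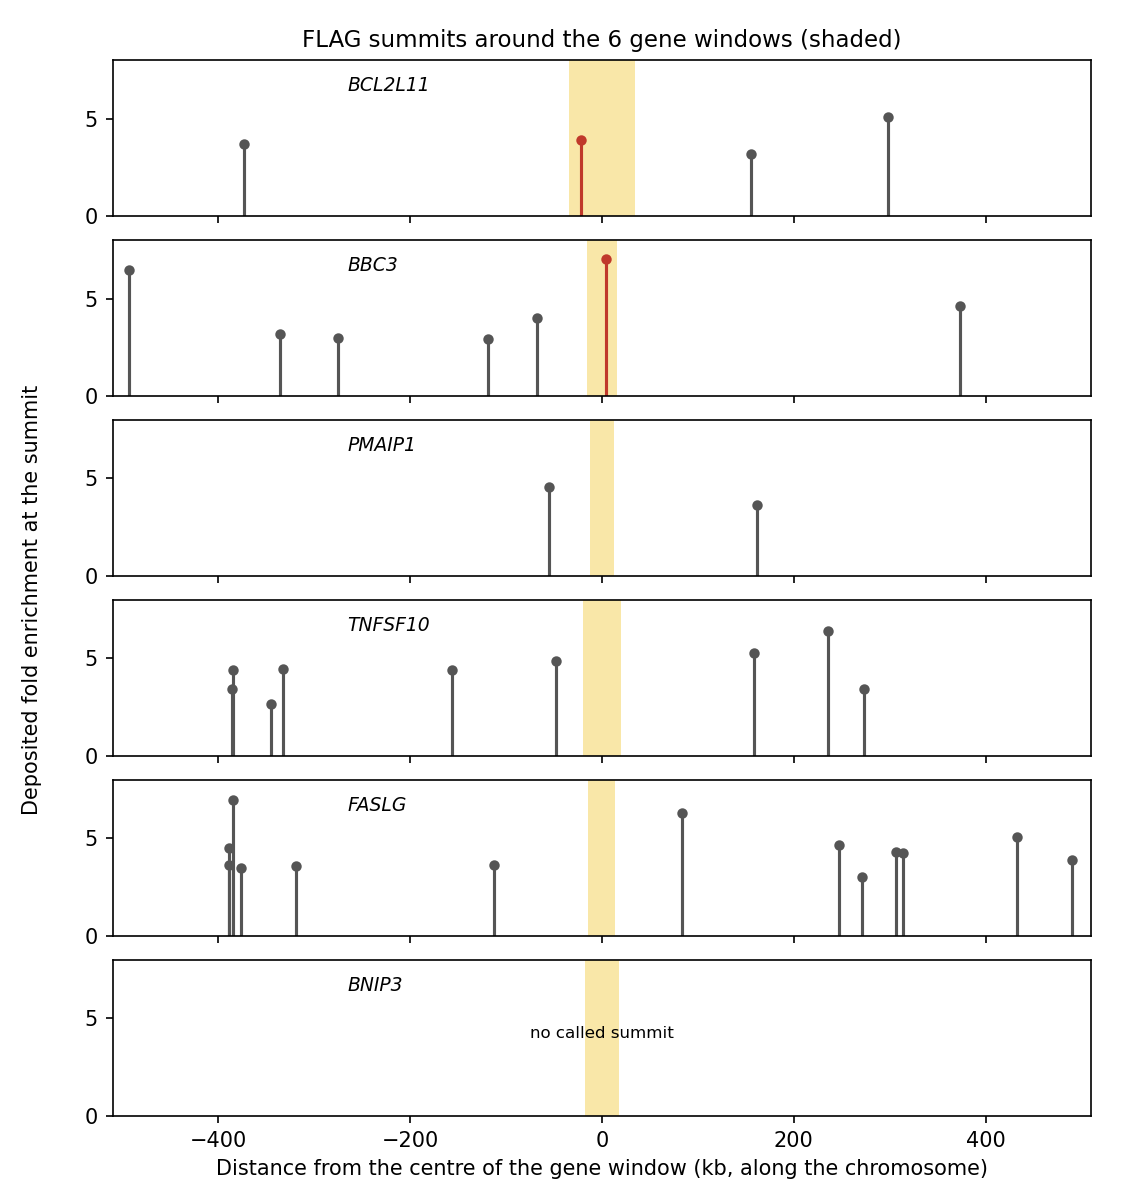
FLAG summits within 500 kb of the centre of each of the 6 gene windows; the x axis is the distance along the chromosome in kb, the height of each line is the deposited fold enrichment, shading marks the window, and red marks a summit inside it. BCL2L11 and BBC3 each have 1 summit in the shaded window (folds 3.92 and 7.04), PMAIP1, TNFSF10 and FASLG have summits only outside it, and BNIP3 has none in view.

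In fold, the 2 peaks took very different places in the list. A fold of 3.92 or more was seen in 4729 of the 9670 peaks (48.9%), so BCL2L11 lay close to the median of 3.88. A fold of 7.04 or more was seen in only 770 peaks (7.96%). On its own chromosome BCL2L11 ranked 400 of 801 and BBC3 ranked 13 of 121. By −log10 q the places were closer, with 18.1% of peaks at or above BCL2L11 and 6.42% at or above BBC3. By pileup they nearly met, as given above.

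The higher fold of BBC3 came with a lower background, and the pileups differed less. The fold of BBC3 was 1.80 times that of BCL2L11, whereas its pileup was 1.13 times as high and its background 0.599 times as high. The intervals of the pileups overlapped, and so did those of the backgrounds, which are given below. The 2 backgrounds were counted over control windows of unlike length. The background of BCL2L11 was 3.57 times the genome-wide level of 3.65 tags, and only 4.91% of peaks had a background as high. That of BBC3 was 2.14 times the genome-wide level, with 25.6% of peaks as high. Among the 871 peaks whose background was within 0.8 to 1.2 times that of BCL2L11, the median fold was 3.37, and 36.9% had a fold as high as BCL2L11. Among the 2494 peaks with a background like that of BBC3, the median was 3.73, and 7.74% had a fold as high.

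**Figure D2:**
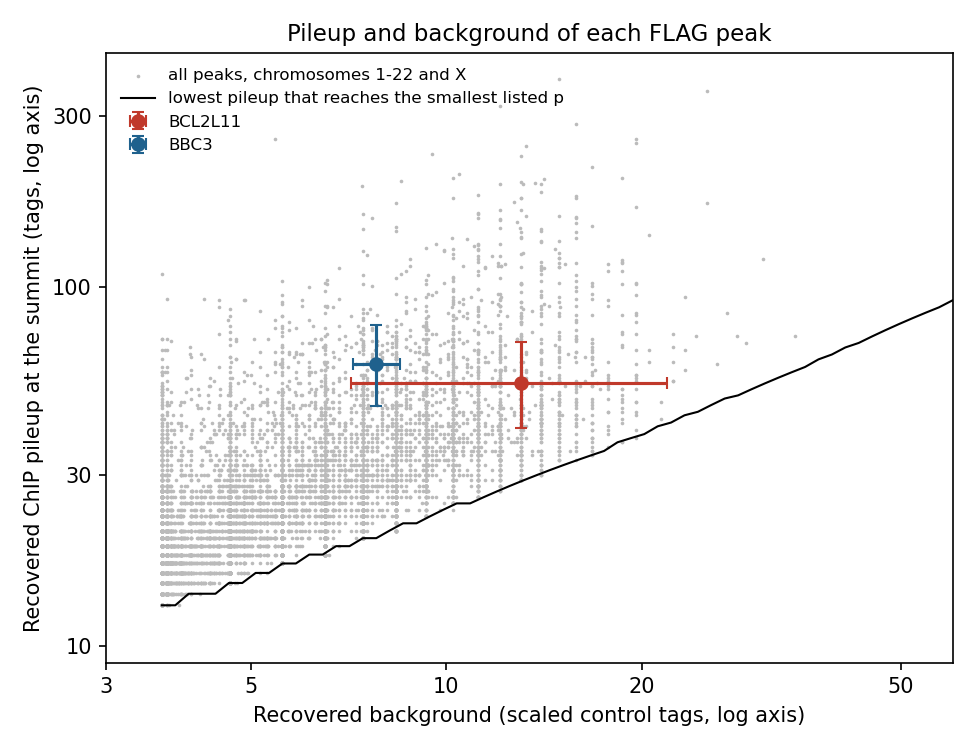
ChIP pileup at the summit (y, tags) against the background of the caller (x, scaled control tags) for the peaks of chromosomes 1 to 22 and X, both on log axes; bars are 95% Poisson intervals (exact) of the tag counts, and the line is the lowest pileup that reaches the smallest p in the list. BCL2L11 and BBC3 have similar pileups (54 and 61 tags), but BCL2L11 lies further right, at a background of 13.03 against 7.81 tags; a few peaks with backgrounds beyond the axis are not drawn.

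The background values also show how many control tags stood behind each fold. MACS2 takes the highest of several control windows as the background, and each window leaves its own step size in the values. The BCL2L11 background matched 14 control tags over the fragment length at the summit, each worth 0.931 ChIP tags, to within 0.0005 tags. The genome-wide level corresponds to 3.92 control tags. The BBC3 background matched 559 control tags over the 10 kb around the summit. A count of 14 has a 95% Poisson interval (exact) of 7.65 to 23.5, or 7.13 to 21.9 tags of background at BCL2L11. For BBC3 the same interval is 7.17 to 8.48 tags. Neither these intervals nor the ratio intervals built on the same counts allow for the choice of the highest window. With the counting error of both libraries, the plain ratio of pileup to background was 4.14 (exact binomial interval 2.27 to 8.08) at BCL2L11 and 7.81 (5.90 to 10.2) at BBC3. These intervals overlap, whereas the intervals of the deposited folds, which treat the background as known, do not. Over the genome-wide background the fold was 11.8 (8.94 to 15.4) at BCL2L11 and 13.3 (10.2 to 17.1) at BBC3. Both pileups are divided here by the same value, so the ratio of 1.13 and the overlap only restate those of the pileups. This fold leaves out the local control signal. The background of the caller was higher at BCL2L11, but its interval overlaps that of BBC3. The 2 backgrounds also came from control windows of unlike length.

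**Figure D3:**
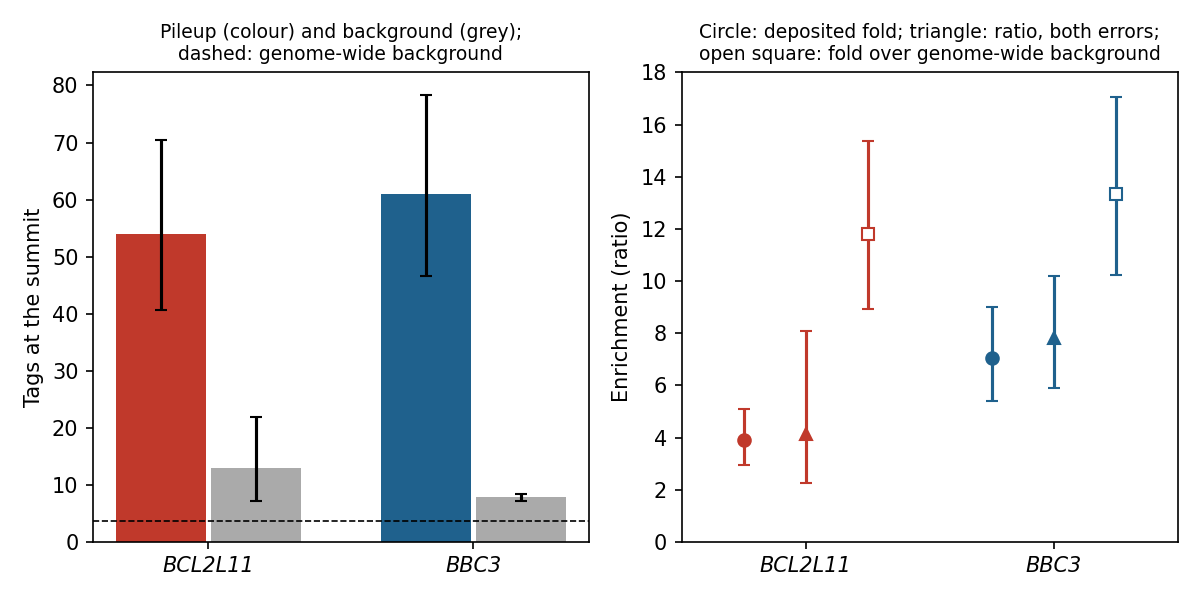
Left, tags at the summit for the BCL2L11 and BBC3 peaks, with the ChIP pileup in colour, the background in grey, 95% Poisson intervals (exact) as bars and the genome-wide background of 3.65 tags as a dashed line. Right, enrichment of each peak. Circles are the deposited fold with the error of the pileup only, and triangles the ratio with the error of both counts. Open squares are the fold over the genome-wide background, which is the same for both genes, so they differ only as the pileups do. The circles of the 2 genes have separate intervals, the triangles and the squares do not.

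PMAIP1, the third gene for a BH3-only protein here, had no FLAG summit in its window (chr18:57557000-57582000). The nearest summits lay 42.5 kb outside it on the upstream side and 150 kb outside it on the downstream side. The first of these, at chr18:57514410-57514642, had 26 tags over 4.89 and a fold of 4.59 (3.05 to 6.64), a value reached by 29.0% of peaks. The second had 16 tags at the genome-wide background and a fold of 3.65 (2.18 to 5.80). In RefSeq order PMAIP1 lies between CCBE1 and MC4R, and the gene to which either summit belongs was not determined.

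TNFSF10, the gene of the death ligand TRAIL, had no summit in its window (chr3:172213000-172252000) although the surroundings held several. Within 500 kb of the window centre 9 summits were called, with folds up to 6.41. The closest lay 27.8 kb outside the window on the downstream side, at chr3:172184868-172185305, with 31 tags over 5.59, a fold of 4.86 (3.35 to 6.83) and a −log10 q of 9.95. Towards the upstream side the closest was 139 kb away with a fold of 5.29 (3.80 to 7.18). In RefSeq order TNFSF10 lies between GHSR and NCEH1.

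FASLG, the gene of the other death ligand, had no summit in its window (chr1:172618000-172646000) either. Within 500 kb of the window centre 13 summits were called, the most of the 6 at that distance, with folds up to 6.96. Within 5 Mb on each side TNFSF10 had more, with 33 below and 16 above its window against 17 and 18 for FASLG. The nearest lay 69.8 kb outside on the downstream side, at chr1:172715532-172716002, with 30 tags over 3.91, a fold of 6.31 (4.33 to 8.93) and a −log10 q of 13.1. On the upstream side the nearest was 98.9 kb away, with 16 tags and a fold of 3.65. The protein-coding neighbours of FASLG are SUCO and TNFSF18.

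The stretches without a summit around these 3 windows were of common length. They spanned 217 kb at PMAIP1, 206 kb at TNFSF10 and 197 kb at FASLG. Of the 9647 distances between neighbouring summits, 32.4%, 33.6% and 34.6% were at least as long. Each distance is counted once here, whereas a fixed window falls more often into a long distance than a short one. The shares therefore do not tell how often a window would lie in a stretch this long.

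No summit was called near BNIP3. Its window (chr10:133771000-133806000) lay beyond the last of the 528 summits called on chromosome 10. That summit, at chr10:129774977-129775222 with a fold of 4.48 (3.24 to 6.04), was 3996 kb from the window. Of the 9647 distances between neighbouring summits, assembly gaps included, 57 were at least that long. Those run from summit to summit, whereas the 3996 kb run from a summit to the window edge. Each is counted once whatever its length, so the count is not the share of the genome in such stretches. In the 5 Mb below the window 2 summits were called, against 8 to 33 in the 5 Mb below the other windows. Above the window none was called, in the short stretch that is left before the chromosome ends. The lack of a peak at BNIP3 thus came with a lack of peaks over the end of the chromosome, and the coverage there was not analysed here.

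The count of genes with a peak has to be read against how often a stretch of that length holds a summit. Chromosomes 1 to 22 and X were cut into adjoining tiles as long as each window, from the first to the last summit. A summit was found in 16.4% of 68 kb tiles, the length used for BCL2L11, and in 8.75% of 32 kb tiles, the length used for BBC3. For the genes without a peak the shares were 7.04% (PMAIP1), 10.4% (TNFSF10), 7.80% (FASLG) and 9.45% (BNIP3). A summit of at least the member's own fold was found in 9.55% of tiles for BCL2L11 and in 0.836% of tiles for BBC3. The tiles stop at the last summit of each chromosome, so they leave out stretches like the one that holds the BNIP3 window. They also include stretches far from any gene, so they are no match for windows centred on genes.

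An absent call sets at most an upper limit on binding, and only where reads cover the site. A call also needs a minimum width. At the genome-wide background, 13 tags and a fold of 3.01 were the least that could reach the smallest p in the list. At the background of BBC3 the least was 20 tags and a fold of 2.38, and at that of BCL2L11 it was 29 tags and a fold of 2.14. Both member peaks were well above this limit, with 61 and 54 tags. The background in the windows of PMAIP1, TNFSF10, FASLG and BNIP3 was not analysed, so the limit that held there is not known. FLAG binding below that limit was not detectable at this depth.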

How the data were processed

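One FLAG peak list of U87MG cells was analysed. Per the submitters' processing notes, reads were handled with Trimmomatic, HISAT2 and MACS2 on hg19; versions, roles, thresholds and control library were not stated there. The layout is that of MACS2. The deposited fold enrichment is a ratio at the summit, the deposited −log10 p and −log10 q are the caller's, and the deposited score is the whole part of 10 times −log10 q. These per-peak values are the authors'.

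MACS2 adds 1 to pileup and to background before it divides them, and takes p from a Poisson tail; from fold and p, pileup and background were solved for each peak, and 9717 peaks matched the deposited −log10 p within 0.001. Tested on simulated data, 1000 of 1000 peaks were recovered. The step of 0.931 tags, with a fragment length of 150 bp from the narrowest peak, gave the control tags; the control was thus 1.07 times as deep as the ChIP library. Intervals cover counting error only, and tags are not independent molecules. Strands, gene order and promoters came from RefSeq (GRCh38.p14; 6 of 6 genes matched) and no coordinate was converted. Ranks and tiles used the 9670 peaks on chromosomes 1 to 22 and X. All 6 genes are named. The genes, windows, motifs and comparisons were chosen with earlier results of these data known. Alternatives varied the thresholds, windows, ranks and tiles. Other apoptosis genes were not analysed here, since no hg19 positions were at hand. Python 3.11.15, pandas 2.3.3, numpy 2.4.6 and scipy 1.17.1 were used.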

Additional observations from a re-analysis of the deposited data

How the results depend on the processing

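BCL2L11 and BBC3 were the genes with a summit, 1 each, at a −log10 q of 5 or 10 or more, by overlap of the interval by 1 bp and with windows extended by 10 kb; merging peaks within 500 bp also left 2 summits. At a fold of 5 or more, 1 summit and 1 gene (BBC3) were left. With windows extended by 50 kb, 4 summits at 4 genes were counted, PMAIP1 and TNFSF10 having gained 1 each. The folds without pseudocount, 4.14 and 7.81, were within the intervals of the deposited ones, and choosing the strongest peak by −log10 q gave the same peaks. Over the genome-wide background, a setting chosen after seeing the data, they were 11.8 and 13.3. The percent of peaks at or above BCL2L11 moved from 48.9% by fold to 18.1% by −log10 q and 9.34% by pileup, and for BBC3 from 7.96% to 6.42% and 6.89%; leaving out very high backgrounds gave 48.9% and 7.97%. The shares of tiles with a summit, in the order BCL2L11, BBC3, PMAIP1, TNFSF10, FASLG and BNIP3, were 15.8%, 8.29%, 6.65%, 9.88%, 7.38% and 8.97% without chromosome 13. They were 5.26%, 2.57%, 2.01%, 3.11%, 2.25% and 2.79% with a −log10 q of 10 or more, and 7.04% with tiles of 25 kb. No paired analysis was possible because there was 1 peak list. With 1 library, the spread between cultures is unknown.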
